A study of Mus musculus with 4 samples.

Results

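The loops described here were chromatin loops of the mouse uterus that were called in all 3 wild-type libraries of a Hi-C series and were not called in the library from females without estrogen receptor alpha (ERα). Hi-C joins and sequences pieces of DNA that touch in the nucleus, and a loop is a pair of genomic windows, its anchors, whose contact stood out from the surroundings. The members were chosen by the loop calls themselves: a loop of wild-type vehicle replicate 2 was taken when it was matched in wild-type vehicle replicate 3 and in the wild-type progesterone library and was not matched in the knockout library. Matched means that both anchors, widened by 10 kb on either side, overlapped the anchors of a single loop in the other list. Of 59353 loops in the 4 lists, and of 16387 in wild-type vehicle replicate 2, 6847 were matched in both other wild-type lists, and 459 of those (6.70%) were not matched in the knockout. A knockout loop with both anchor midpoints within 25 kb lay next to 203 of the 459, which are called near misses here. The other 256 members, 3.74% of the 6847, had no such neighbour and are described apart.

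All animals were ovariectomized C57BL/6J females older than 10 weeks that rested for 10 to 14 days before a single injection, and whole uterus was frozen 1 h after it. The 4 libraries were wild-type mice given 100 ul of saline into the abdominal cavity (2 libraries, replicates 2 and 3), wild-type mice given subcutaneous progesterone, 1 mg dissolved in 100 ul of oil from sesame (1 library, replicate 2), and Ex3aERKO mice given saline (1 library). Progesterone and vehicle therefore differed in route and carrier as well as in hormone. Ex3aERKO names a line that lacks exon 3 of Esr1 in the whole body, so the organ had developed without the receptor. Neither the number of animals behind a library nor whether replicates were separate animals was given in the sources used here. With 1 knockout library there is no estimate of its replicate error, and no test was made between genotypes. The lists hold positions and no contact counts, so how deeply a library was sequenced is unknown. A loop missing from a list was not called there, and the strength of its contact was not measured.

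Most mammalian loops form where cohesin, a ring-shaped complex, extrudes DNA until it is halted at sites bound by CTCF, and others join promoters with distant enhancers. ERα is the nuclear receptor through which estradiol makes the uterine epithelium and stroma grow, and it binds mostly at enhancers far from the promoters of its target genes. It also sets the level of the progesterone receptor, through which progesterone prepares the uterus for implantation.

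A few promoters that lay inside anchors of members without a near miss are shown first, because they belong to the genes the later results turn on. Klf6 and Inhbb are genes of the early estrogen response list, Pds5b codes for a partner of cohesin, and Vmn2r29 lies at the place with the most members. Sequences run 5′ to 3′ on the gene's own strand, from 250 bases before to 50 bases after a start site, and come from RefSeq on GRCm38.p6, the assembly behind mm10. Capitals mark a match to the CTCF core letters CCNNNAGGNGGC on either strand, and a sequence without capitals held none of the motifs searched.
Klf6, chr13:5861239-5861538, plus strand: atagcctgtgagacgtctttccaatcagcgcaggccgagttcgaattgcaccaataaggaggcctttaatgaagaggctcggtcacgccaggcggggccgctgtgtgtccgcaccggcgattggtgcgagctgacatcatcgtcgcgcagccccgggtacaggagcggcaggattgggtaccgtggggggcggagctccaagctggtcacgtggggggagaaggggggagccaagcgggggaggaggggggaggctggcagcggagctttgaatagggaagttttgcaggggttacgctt
Inhbb, chr1:119422199-119422498, minus strand: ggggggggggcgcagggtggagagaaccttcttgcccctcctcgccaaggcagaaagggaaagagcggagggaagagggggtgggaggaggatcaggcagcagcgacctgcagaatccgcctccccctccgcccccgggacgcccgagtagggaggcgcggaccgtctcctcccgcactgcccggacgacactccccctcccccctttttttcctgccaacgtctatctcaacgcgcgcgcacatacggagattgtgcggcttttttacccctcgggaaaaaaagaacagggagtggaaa
Pds5b, chr5:150673577-150673876, plus strand: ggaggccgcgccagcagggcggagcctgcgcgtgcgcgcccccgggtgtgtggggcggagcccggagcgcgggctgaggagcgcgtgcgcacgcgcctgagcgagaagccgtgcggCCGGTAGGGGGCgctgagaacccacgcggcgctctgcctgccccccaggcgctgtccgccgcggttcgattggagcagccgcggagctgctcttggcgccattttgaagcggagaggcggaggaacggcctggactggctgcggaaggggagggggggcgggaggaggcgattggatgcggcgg
Vmn2r29, chr7:7278240-7278539, minus strand: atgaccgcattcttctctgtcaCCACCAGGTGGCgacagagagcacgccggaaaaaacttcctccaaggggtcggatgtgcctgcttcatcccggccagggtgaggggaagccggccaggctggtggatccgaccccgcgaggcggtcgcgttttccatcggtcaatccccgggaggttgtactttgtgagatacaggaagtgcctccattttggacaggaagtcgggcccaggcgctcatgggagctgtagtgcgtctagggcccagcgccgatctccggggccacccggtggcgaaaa

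The promoter table does not cover 1 autosome, which leaves 249 of the members without a near miss. Both anchors held a start site in 18 of them (7.23%), 1 anchor did in 54 (21.7%), and neither did in 177 (71.1%). The shares among loops matched in all 4 lists were 4.53%, 22.5% and 73.0%. Among loops missing in the same way from progesterone, vehicle replicate 3 and vehicle replicate 2, both anchors held a start site in 10.3%, 10.9% and 15.6% and neither did in 62.3%, 57.5% and 50.9%. Most members thus joined windows with no start site of the table in either anchor.

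Motif matches in the 118 promoters of these members were few. The CTCF core letters were found in 4 of them (3.39%), in the promoters of Efcab14, N4bp2l2, Pds5b and Vmn2r29, against 10.8% of 74 promoters at near misses, 8.27% of 2008 at loops matched in all 4 lists and 4.16% of all 21045 promoters of the same length. The share was 9.07%, 6.78% and 3.16% at loops missing in the same way from progesterone, vehicle replicate 3 and vehicle replicate 2. The full estrogen response element palindrome GGTCANNNTGACC was found in none of the members' promoters and in 11 of the 21045 (0.0523%). The hexamer AGGTCA, 1 arm of the element, was found in 19 (16.1%), against 10.8% at near misses, 12.8% at loops in all 4 lists and 14.6% of all promoters. At loops missing from progesterone, vehicle replicate 3 and vehicle replicate 2 it was 11.0%, 9.52% and 17.1%, so the members' shares of both motifs lay close to those of vehicle replicate 2. Both strands were searched, and a full palindrome preceded by A holds the hexamer too. These windows are 300 bases of anchors that are 5 to 25 kb long, so the rest of the anchor was not searched.

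The knockout list was the longest of the 4, with 21829 loops against 16387, 9385 and 11752 in wild-type vehicle replicates 2 and 3 and progesterone. Its loops were shorter, with a median of 150 kb between anchor midpoints against 185, 200 and 190 kb. Loops of 400 kb or more were 21.8% of its list against 25.4%, 25.5% and 25.9%, although at 4767 they were more numerous than in any wild-type list. Anchors of 5 kb, the finest resolution, made up 64.8% of the knockout list and 42.1% to 58.7% of the wild-type lists. What part these differences in list size and resolution have in the members below was not tested.

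The share of 6.70% has a 95% Clopper-Pearson interval of 6.12% to 7.32%, which covers counting error only. The same rule was applied with each other list in the place of the knockout. Loops matched in the other 3 lists were missing from the progesterone list in 865 of 7253 cases (11.9%), from vehicle replicate 3 in 2044 of 8432 (24.2%), and, starting from vehicle replicate 3, from vehicle replicate 2 in 273 of 6785 (4.02%). The knockout's share therefore lay between those of wild-type lists of the same kind, below the shares of the shorter lists and above that of the longest wild-type list. Without near misses, the shares were 3.74% for the knockout (3.30% to 4.22%), 9.65% for progesterone, 22.2% for vehicle replicate 3 and 2.64% for vehicle replicate 2. These figures share most of their loops and are given side by side with no test.

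**Figure D1:**
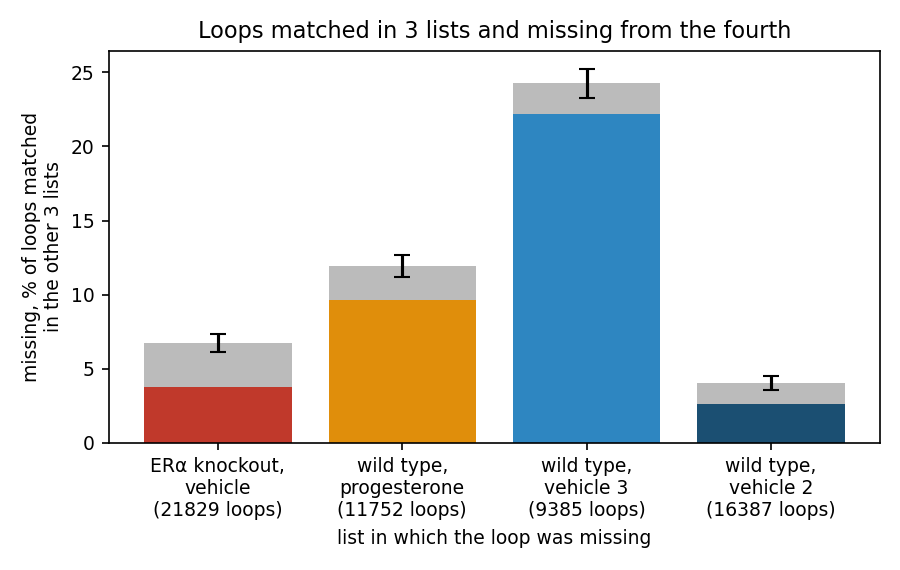
Bars give the percent of loops matched in 3 lists that were missing from the list named on the horizontal axis, with the loops in that list in parentheses. Coloured parts had no near miss, grey parts had one, and error bars are exact 95% intervals of the whole bar for counting error. The knockout bar at 6.70% stands between wild-type bars of 4.02% and 24.2%.

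Near misses made up 44.2% of the knockout's missing loops, against 19.1% for progesterone, 8.51% for vehicle replicate 3 and 34.4% for vehicle replicate 2. This share depends on the distance added: near misses were 515 of 659 members (78.1%) with 0 kb and 28 of 303 (9.24%) with 10 kb added to the anchors of both lists. Their larger anchor shift had a median of 17.5 kb. In 168 of the 203 (82.8%), 1 anchor stayed within 5 kb of its wild-type midpoint and the other moved. The knockout loop was shorter than the wild-type loop in 119 and longer in 83. Around the threshold for a match, 302 matched loops had anchors 5 kb apart, the widest gap among them, and 149 members had anchors 10 kb apart, the narrowest. At the outer limit, 18 near misses had a shift of 25 kb and 9 members without a near miss had a shift of 27.5 kb.

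Near misses included loops at well-known uterine genes. The early estrogen response list had near misses at Igf1, a growth factor that carries the estrogen signal from stroma to epithelium, and at Vegfa, the main growth factor of blood vessels. At Igf1 the wild-type loop ran for 205 kb from chr10:87650001-87655000 and the knockout loop started at 87665001 and ran for 190 kb to the same right anchor. At Vegfa the wild-type loop ran for 100 kb from chr17:46030001-46035000 and the knockout loop kept that anchor and ran for 80 kb. Nrip1, a corepressor of nuclear receptors, Smtn, a protein of smooth muscle, and Tfap2c, a transcription factor, had shifts of 25, 20 and 20 kb. The loop of Hoxd8 and Hoxd9, homeobox genes of the posterior body axis, ran for 620 kb in the wild type and 605 kb in the knockout. All of these 6 knockout loops were shorter than the wild-type loops, and each kept 1 anchor. With 10 kb added to the anchors of both lists, all of them except the Nrip1 loop counted as matched.

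Members without a near miss were longer than the other loops before anchor size was considered. They spanned 45 to 54870 kb, with a median of 350 kb (quartiles 200 and 592.5 kb), against a median of 200 kb (100 to 400 kb) for the 6388 loops matched in all 4 lists and 160 kb (90 to 272.5 kb) for near misses. Within anchor sizes the medians were 225 kb against 170 kb at 5 kb and 400 kb against 340 kb at 10 kb, and at 25 kb the members were shorter, at 425 kb against 475 kb. Over all anchor sizes, loops of the same kind missing from another list were shorter. Their medians were 192.5 kb for progesterone, 160 kb for vehicle replicate 3 and 225 kb for vehicle replicate 2. This did not hold at 25 kb anchors, where those medians were 475, 475 and 350 kb against the members' 425 kb. More than 2 Mb was spanned by 7 members (2.73%) and by 0.579% of the loops in all 4 lists. Among loops missing in the same way from progesterone, vehicle replicate 3 and vehicle replicate 2 the share was 0.429%, 1.6% and 1.12%. Loops that share anchors are not independent, and no test was made.

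Members without a near miss also had coarse anchors. Anchors of 5, 10 and 25 kb were held by 77 (30.1%), 95 (37.1%) and 84 (32.8%) of them, whereas the loops in all 4 lists had 5 kb anchors in 78.7% and 25 kb anchors in 4.74%. Near misses were finer, with 5 kb anchors in 137 and 25 kb anchors in 2. Expressed as a rate, 1.47% of the matched wild-type loops with 5 kb anchors, 7.81% with 10 kb and 21.6% with 25 kb were missing from the knockout with no near miss. The rate rose with anchor size for each other list too, from 6.39% to 27.3% for progesterone, from 16.5% to 45.5% for vehicle replicate 3 and from 0.769% to 7.77% for vehicle replicate 2. Loops with 25 kb anchors were matched least often among the wild-type lists as well: 17.9% of those in vehicle replicate 2 were matched in both others, against 26.5% with 10 kb and 54.5% with 5 kb anchors.

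Coarse anchors go with long loops, so length was set out within each anchor size. Among loops with 10 kb anchors, the share missing from the knockout without a near miss was 5.51% below 100 kb, 5.38% from 100 to 200 kb, 7.95% from 200 to 400 kb, 9.62% from 400 to 800 kb and 8.91% above. The same share fell with length for progesterone, from 25.5% below 100 kb to 12.4% above 800 kb, and for vehicle replicate 2, from 6.30% to 0.503%. For vehicle replicate 3 it went from 47.3% through 27.3% at 400 to 800 kb to 33.7%. Among loops with 5 kb anchors, the knockout's share was lowest below 100 kb (0.537%, 8 of 1490 loops) and highest at 200 to 400 kb (2.20%, 29 of 1320), and it was 1.15% above 800 kb (3 of 262). Each other list missed the loops below 100 kb most often, at 9.15%, 26.1% and 1.23%. Among 25 kb anchors the knockout's share had no such order, at 24.2% from 100 to 200 kb, 27.4% from 200 to 400 kb and 17.6% from 400 to 800 kb. Several of these classes hold few members, and the difference between lists was not tested.

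**Figure D2:**
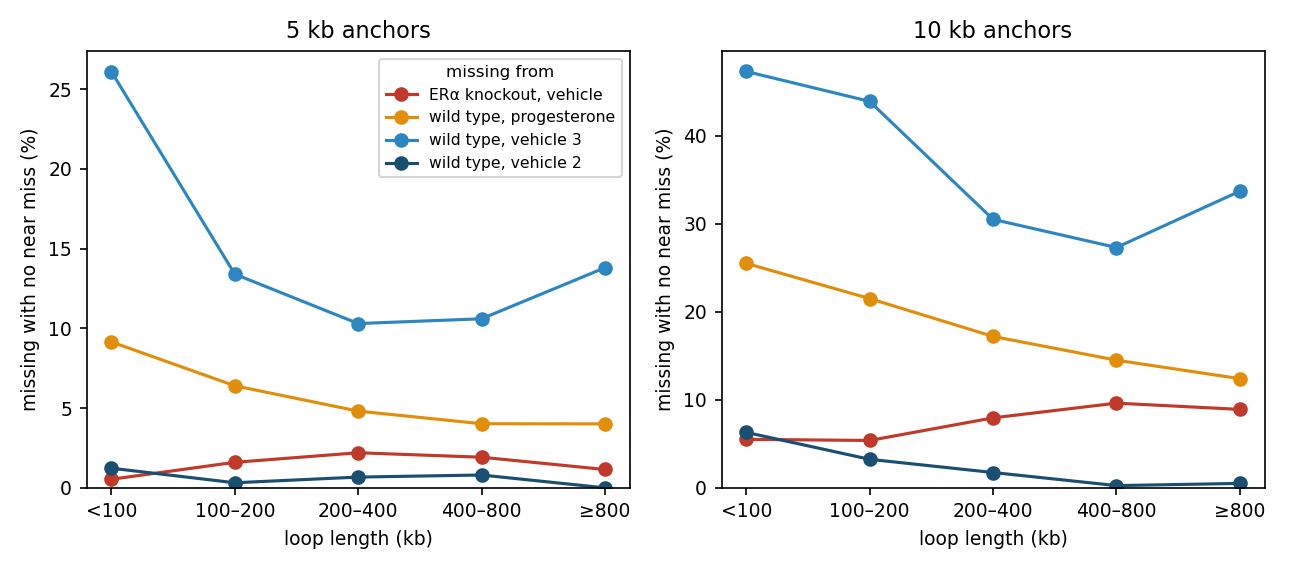
The percent of loops matched in 3 lists that were missing from the fourth with no near miss is plotted against loop length in kb, for loops with 5 kb anchors (left) and 10 kb anchors (right). Each line is the list from which loops were missing: the lines of the 3 wild-type lists start at their highest value below 100 kb, and the knockout line starts at 0.537% and 5.51% and peaks at 2.20% and 9.62%. Loops missing from vehicle replicate 2 are loops of vehicle replicate 3, and all others are loops of vehicle replicate 2.

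Where a member had no near miss, the nearest knockout loop was usually a shorter one. The larger anchor shift to that loop had a median of 88.8 kb (quartiles 42.5 and 181 kb), and 93 members lay 25 to 50 kb from it, 43 lay 50 to 100 kb, 65 lay 100 to 200 kb, 34 lay 200 to 400 kb, 14 lay 400 to 800 kb and 7 lay farther. The nearest knockout loop was shorter than the member in 181 cases (70.7%) and longer in 74 (28.9%). For loops missing from progesterone, vehicle replicate 3 and vehicle replicate 2, the nearest loop of that list was shorter in 50.6%, 43.5% and 52.0%. Over all anchor sizes, the members missing from the knockout had the highest median length of the 4 sets. The knockout list has the shortest loops, and the part of either in this share was not tested.

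**Figure D3:**
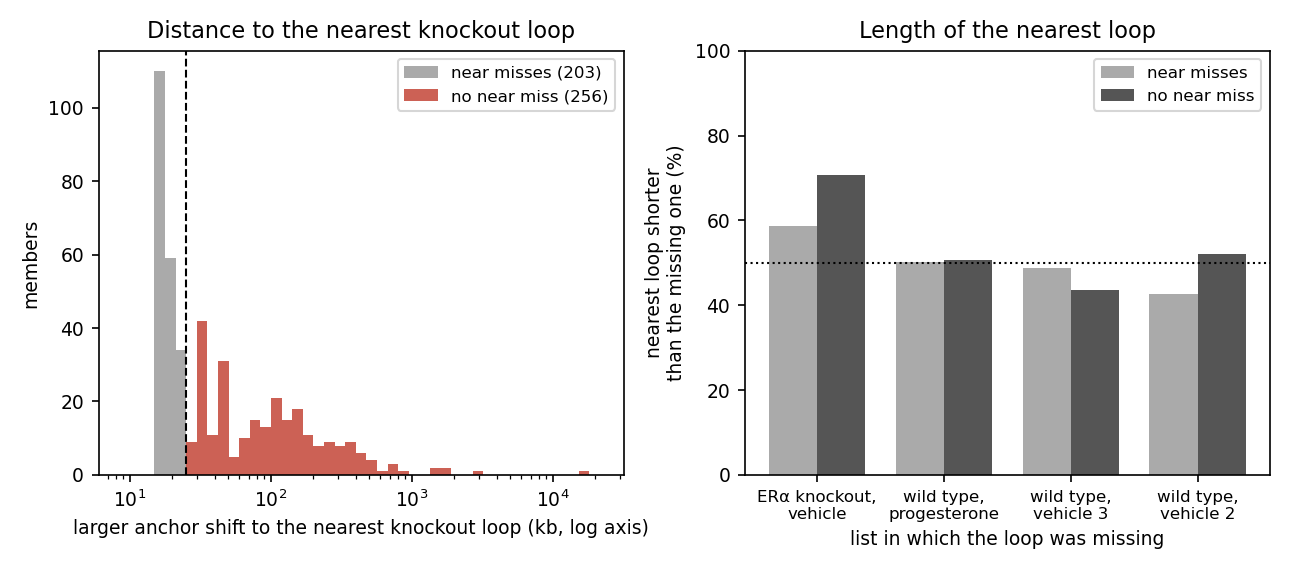
Left, the members are counted by the larger of their anchor shifts to the nearest knockout loop in kb on a log axis, with near misses in grey up to the dashed line at 25 kb and the 256 others in red. Right, bars give the percent of missing loops whose nearest loop in the list named below was shorter, and the dotted line is 50%: the knockout bars stand at 58.6% and 70.7% and the others at 42.6% to 52.0%.

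Many anchors of these members were also anchors of other knockout loops. Within 10 kb, both anchors lay in anchors of other knockout loops in 155 of the 256 (60.5%), 1 did in 89 (34.8%) and neither did in 12 (4.69%). With no distance added, both did in 95 (37.1%). For loops missing from progesterone, vehicle replicate 3 and vehicle replicate 2 in the same way, both anchors were in other loops of that list in 48.1%, 34.3% and 60.3%. From at least 1 anchor, a shorter knockout loop ran towards the other anchor in 194 members (75.8%) and a longer one in 150 (58.6%). Shorter loops alone were found in 88, longer loops alone in 44, both in 106 and neither in 18. In 44 members (17.2%) the knockout joined the anchors by a pair of loops that met between them, against 38 (14.8%) in vehicle replicate 2, 25 (9.77%) in vehicle replicate 3 and 35 (13.7%) in progesterone. Such a pair was in the knockout and not in vehicle replicate 2 for 20 members, and the reverse held for 14. The knockout list held 21829 loops, against 16387, 9385 and 11752 in vehicle replicate 2, vehicle replicate 3 and progesterone. The part of list size and anchor width in these counts was not tested.

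Inside the spans of the 249 members of up to 2 Mb, the knockout list held 987 loops and wild-type vehicle replicate 2 held 760 besides the member itself. The ratio of 1.30 is close to the 1.33 of the whole lists. The knockout had more loops inside in 108 members, vehicle replicate 2 had more in 33 and the numbers were equal in 108. In 10 of the 256 there was no knockout loop at either anchor or inside the span. Of the 249 spans, 64 held no knockout loop inside and 66 held no other loop of vehicle replicate 2, and the median was 2 loops for each list. Most spans that the knockout list did not close thus held loops inside, in the knockout and in vehicle replicate 2 alike.

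Klf6, a zinc-finger transcription factor of the early estrogen response, gave an example at fine resolution. Wild-type vehicle replicate 2 had a 425 kb loop from chr13:5435001-5440000 to chr13:5860001-5865000, whose right anchor holds the promoter printed above. The progesterone list had the same bins, and vehicle replicate 3 had a 420 kb loop with 10 kb anchors at chr13:5440001-5450000 and chr13:5860001-5870000. The knockout had 10 loops with an anchor within 10 kb of the right anchor and 0 at the left anchor. Its nearest loop, at a shift of 125 kb, ran past the left anchor to 5300001 with 25 kb anchors and a length of 550 kb, and a 295 kb loop to the right anchor started inside the span. By gene end, Klf6 stood in 5, 6 and 8 loops of the wild-type vehicle replicate 2, vehicle replicate 3 and progesterone lists and in 10 of the knockout list.

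**Figure D4:**
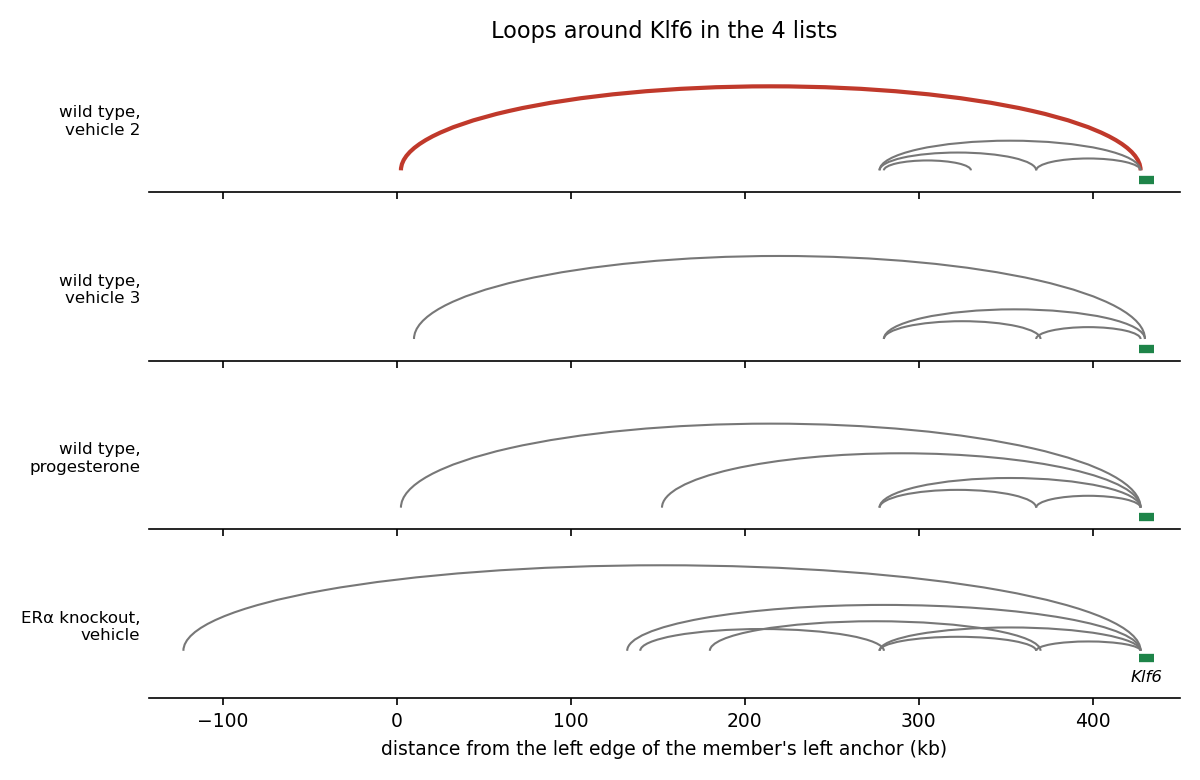
Each arc is 1 loop, drawn between its anchor midpoints in kb from the left edge of the member's left anchor, in a row for each list; the green bar is Klf6. The red arc is the 425 kb member of vehicle replicate 2, arcs of 420 and 425 kb stand in the other wild-type rows, and the knockout row has arcs of 295 and 550 kb to the same right anchor.

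Inhbb, the beta B subunit of inhibins and activins, was the other gene of the early estrogen response at a member without a near miss. The 650 kb loop joined chr1:118750001-118775000 with chr1:119400001-119425000, and both other wild-type lists had the right anchor 25 kb farther out, at 119425001. Inhbb ends at 119422248, so the right anchor of this loop held the gene in vehicle replicate 2 only. The nearest knockout loop had the same left anchor and ended at 119450001, a shift of 50 kb. The right end thus moved by 1 bin of 25 kb between vehicle replicate 2 and the other wild-type lists, and by 1 more bin in the knockout. The knockout's bin bordered that of the other wild-type lists, so by their coordinates this loop would count as matched in the knockout. By gene end, Inhbb stood in 3, 1 and 1 loops of the wild-type lists and in 2 of the knockout list.

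Igf1 had a second member, without a near miss, beside its near miss. This 300 kb loop joined chr10:87650001-87675000 with chr10:87950001-87975000, in identical bins in the 3 wild-type lists, and its right anchor lay 13.0 kb beyond the end of the gene. Nearest to it was the knockout's 190 kb loop to the gene's left end, at a shift of 105 kb. The knockout also had a 120 kb loop from that end to the member's right anchor, so that a pair of knockout loops met there. Vehicle replicate 2 had a 115 kb loop in that place as well, and neither other wild-type list had it. Igf1 stood in 4, 2 and 1 loops of the wild-type lists and 5 of the knockout list by gene end.

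**Figure D5:**
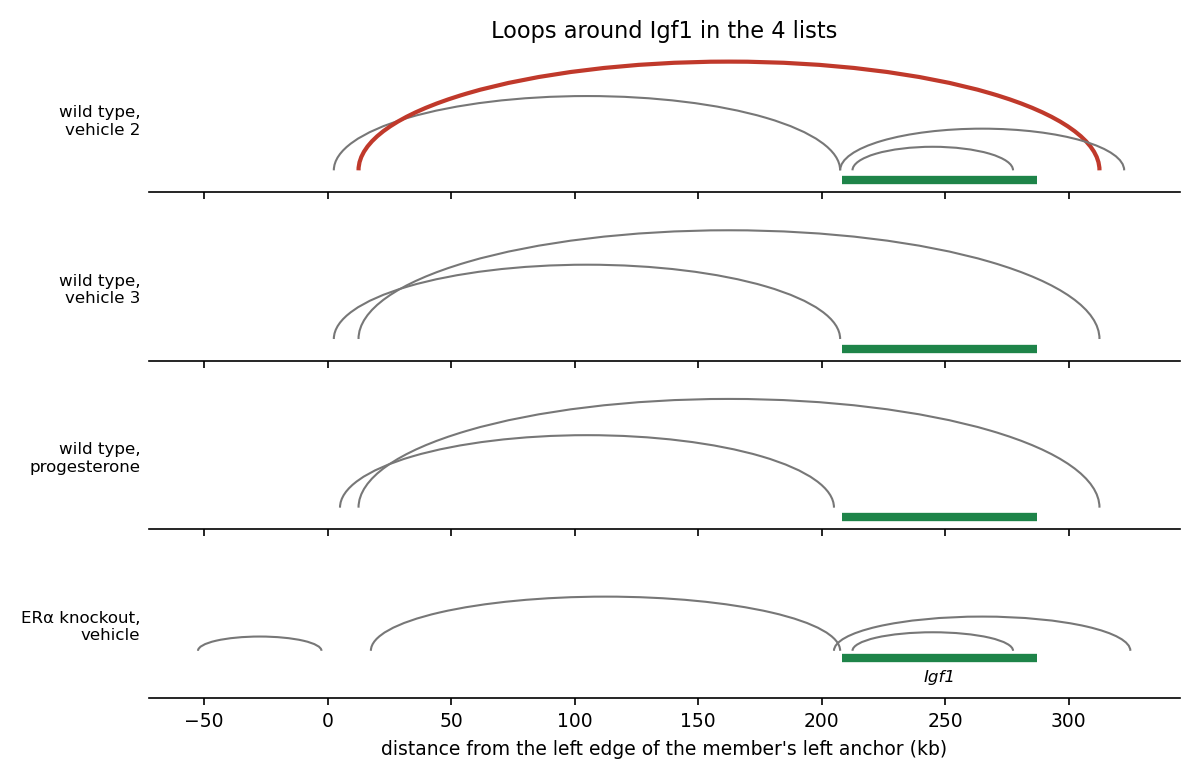
Each arc is 1 loop, drawn between its anchor midpoints in kb from the left edge of the member's left anchor, in a row for each list; the green bar is Igf1. The red arc is the 300 kb member, which stands in all 3 wild-type rows, and the knockout row has arcs of 190 and 120 kb that meet at the gene's left end.

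Pgr, the gene of the progesterone receptor and an ERα target in the uterus, also lay at a member. The 200 kb loop joined chr9:8700001-8705000 with chr9:8900001-8905000, which lies within Pgr (chr9:8898900-8968611), and its 5 kb bins were identical in all 3 wild-type lists. In the knockout the closest loop kept the right anchor and started at 8730001, which made it 170 kb long. The shift of 30 kb lies just outside the limit for a near miss. The knockout had 3 loops within 10 kb of each anchor of this member.

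Members at other genes of hormone response were fewer. Greb1, which estrogen induces in many target cells, was in no member anchor, but a 450 kb member from chr12:16810001-16820000 to chr12:17260001-17270000 started 8.61 kb from it. That loop joined E2f6, a repressor of the E2F family, with Pdia6, a protein-folding enzyme, and the nearest knockout loop lay 217.5 kb away. Esr1 and Ihh, a signal that the epithelium makes in response to progesterone, were at no member. Esr1 stood in 1, 2, 0 and 1 loops of vehicle replicate 2, vehicle replicate 3, progesterone and the knockout, and the lists of loops carry no reads that would check the deletion.

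Of 41 genes of the early estrogen response found in the annotation, 19 had an end in an anchor of the 6847 matched loops, 4 at a member and 2 at a member without a near miss. Over all 21631 protein-coding genes these counts were 3096, 292 (9.43% of the 3096) and 176 (5.68%). Of the early estrogen response genes counted, Inhbb was in the anchor of its member in vehicle replicate 2 only. The progesterone response list had 12 of 31 genes at matched loops and 0 at members. Pgr, in this list and in that of steroid receptors, was not counted by this measure. The member's anchor lay inside Pgr and held neither end of it. The list of uterine and duct patterning genes had 15 of 33 at matched loops, with Hoxd11 at a member without a near miss and Hoxd9 at a near miss. Steroid receptors and their coregulators had 8 of 20 at matched loops, with Nrip1 and Tfap2c at near misses and none at the other members. In each of these 4 lists, most genes at matched loops were at no member.

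The lists of cell types were checked in the same way, since whole uterus is a mixture of cell types. Stroma had 10 of 16 genes at matched loops, and Col1a2 and Lum at members without a near miss. Smooth muscle had 5 of 13, with Smtn at a near miss. Epithelium had 1 of 16, endothelium 0 of 11 and immune cells 1 of 13, with 0 at members. The outside lists of hepatocyte and neuron genes had 1 of 19 and 4 of 20, with 0 at members. In bulk tissue, fewer cells of a type and fewer contacts in each cell cannot be told apart.

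Lum codes for lumican, a proteoglycan that binds collagen fibrils. Its 190 kb loop from chr10:97375001-97380000 to chr10:97565001-97570000 had identical 5 kb bins in the 3 wild-type lists. The nearest knockout loop ran for 85 kb from 97395001, at a shift of 85 kb, and 1 knockout loop had an anchor within 10 kb of the Lum anchor. Col1a2 codes for the alpha 2 chain of type I collagen. Its 840 kb loop joined chr6:4540001-4550000 with Asb4 at chr6:5380001-5390000, both other wild-type lists had it at 850 kb with 25 kb anchors, and the nearest knockout loop started 132.5 kb farther left and was 975 kb long. Lum stood in 2, 2, 3 and 1 loops and Col1a2 in 4, 3, 3 and 2 loops of vehicle replicate 2, vehicle replicate 3, progesterone and the knockout.

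Hoxd11 and Pds5b complete the genes of the lists. Hoxd11, a homeobox gene of the HoxD cluster, had a 1095 kb loop from chr2:74685001-74690000 to chr2:75780001-75785000, with 1100 kb loops of 25 kb anchors in both other wild-type lists. The nearest knockout loop was 1005 kb long, from 74695001 to 75700001. Pds5b, whose product regulates the release of cohesin from DNA, had a 425 kb loop to chr5:150225001-150250000, and the nearest knockout loop ended within the same right anchor but started 72.5 kb farther left and was 500 kb long. The right anchor of this loop also holds an end of N4bp2l2, and both promoters have the CTCF core letters. Pds5b was 1 of only 2 genes of the 15 in the loop architecture list that had an end at a matched loop at all. By gene end, Hoxd11 stood in 5, 3 and 2 loops of vehicle replicate 2, vehicle replicate 3 and progesterone and in 5 of the knockout. For Pds5b the numbers were 3, 1 and 1, and 2 in the knockout.

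Among genes outside the lists, the named ones were those with the most members without a near miss, then those with the finest anchors. Tmem130, Clcn4, Tsen34, Vmn2r29, Zfp444 and Zfp787 had 2 each. Abca1, an exporter of cholesterol, Bcl2, which holds back cell death, Bmi1, a Polycomb protein, and its neighbour Commd3 had 1 each at 5 kb anchors. By gene end, Clcn4 and Vmn2r29 stood in 5, 3 and 2 loops of the wild-type lists and 0 of the knockout list, and Tmem130 in 3, 2 and 3 loops and 0. A knockout loop still had an anchor within 10 kb of the Tmem130 anchors of its members, but that anchor held no end of the gene. In contrast, Zfp444 stood in 4, 5 and 3 loops of the wild-type lists and 10 of the knockout list. Bmi1 stood in 9, 3, 3 and 2 loops, Bcl2 in 4, 4, 3 and 2, and Tsen34 in 4, 2, 2 and 1. Zfp787 stood in 4, 4, 4 and 6 loops, Commd3 in 9, 3, 5 and 6, and Abca1 in 3, 2, 2 and 3. The genes were chosen for a loop missing from the knockout, so a lower number there is not a result.

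The 256 members fell into 248 places when loops with overlapping anchors were joined, and 7 places held several members, 15 in all. The largest place, chr7:3675001-7300000, held 3. A 2475 kb loop joined Tsen34, Mboat7 and Tmc4 with the zinc-finger genes Zfp444 and Zfp787. An 1125 kb loop joined that second anchor with Clcn4, a chloride and proton exchanger, and Vmn2r29, a vomeronasal receptor gene, and a 925 kb loop joined Zfp78 with the same right anchor. All 3 had 25 kb anchors. A further member without a near miss lay in this span and was not joined with them, since no anchors overlapped. This 450 kb loop ran from chr7:3700001-3725000 to chr7:4150001-4175000. Its left anchor borders that of the 2475 kb loop and also holds an end of Tsen34. Within 10 kb, the knockout had 10 loops at the Zfp444 anchor, 6 at the Zfp78 anchor and 0 at the Clcn4 anchor. The knockout loop nearest to the 1125 and 925 kb members had a larger anchor shift of 370 kb.

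Of the places with 2 members, the first 4 in chromosome order are given. On chr5:144025001-144750000, loops of 700 and 530 kb ended at Tmem130, and the knockout had a 340 kb loop to the same anchor and more loops inside, 7 against 4 in vehicle replicate 2 for the longer one. On chr8:31270001-32215000, loops of 730 and 205 kb met within Nrg1, which codes for a ligand of the ErbB receptors. The knockout kept the middle anchor in a 490 kb loop and had 0 loops at the outer right one. On chr10:108300001-108540000, loops of 145 and 235 kb shared a left anchor with 0 knockout loops, and the nearest knockout loops started 30 kb farther right. On chr11:61190001-61720000, loops of 310 and 520 kb shared a left anchor that had 3 knockout loops. These places differ in which anchor had no knockout loop.

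The members farthest from any knockout loop included very long ones. A 54870 kb loop on chromosome 11, from 54140001 to 109020000, had identical 10 kb bins in the 3 wild-type lists, and the nearest knockout loop was 16867.5 kb off. It was far longer than the next longest member, at 3470 kb, and the call was not checked against contact maps, which were not used here. The knockout had 2 loops at its left anchor and 0 at its right. The next were a 3470 kb loop at chr14:90430001-93910000 (2880 kb to the nearest knockout loop), a 2450 kb loop on chromosome 18 from 70650001 (1900 kb), a 2150 kb loop at chr9:111490001-113650000 (1727.5 kb) and a 1275 kb loop at chr2:82050001-83350000 (1575 kb). The last of these starts at Zfp804a, a zinc-finger gene, and had no knockout loop at either anchor or inside.

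The other 5 of these farthest members were a 1675 kb loop on chromosome 18 from 84800001 (1532.5 kb), an 820 kb loop at chr17:52560001-53390000 (912.5 kb), a 2350 kb loop at chr6:131500001-133875000 that ends at Kap (750 kb), a 250 kb loop at chr10:74210001-74470000 within Pcdh15, a cadherin gene (720 kb), and the 1890 kb loop at chr8:31290001-33190000 (717.5 kb). The loops on chromosome 6 and the loop from 84800001 had identical 25 kb bins in the 3 wild-type lists. Over all 256 members, 53 (20.7%) had the same anchor midpoints in the 3 wild-type lists, against 30.6% of the loops matched in all 4. Bins of different size can share a midpoint. The groups also differ in resolution, with 25 kb anchors in 32.8% and 4.74%.

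Igfbp2 and Igfbp5, which code for binding proteins of insulin-like growth factors, lay at the right anchor of a 550 kb loop and were picked out after their values were seen. The loop joined chr1:72300001-72325000, at Tmem169 and Xrcc5, with chr1:72850001-72875000, in identical bins in the 3 wild-type lists. The nearest knockout loop kept the left anchor and ended at 72710001, 410 kb away from it. The knockout had 9 loops at the right anchor and 3 at the left. Igfbp5 also had a near miss, a 70 kb wild-type loop from 72870001 that started at 72885001 in the knockout.

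The share of members with a gene at an anchor was set beside that of other loops of the same resolution. Over all anchor sizes, a gene end lay in both anchors of 33 members without a near miss (12.9%), in 1 anchor of 76 (29.7%) and in neither of 147 (57.4%), against 7.67%, 32.7% and 59.7% of the loops matched in all 4 lists. Within anchor sizes, both anchors held a gene end in 3.90% against 6.44% at 5 kb, 5.26% against 9.93% at 10 kb and 29.8% against 20.1% at 25 kb. The share with any gene end was 31.2% against 38.7% at 5 kb, 37.9% against 41.2% at 10 kb and 58.3% against 63.4% at 25 kb. Loops missing from progesterone, vehicle replicate 3 and vehicle replicate 2 had a gene end in 51.3%, 54.0% and 65.4%, against 42.6% for the knockout. No protein-coding gene lay wholly between the anchors in 89 members (34.8%), against 44.3% of the loops in all 4 lists. Within anchor sizes these shares were 39.0% against 46.7% at 5 kb, 38.9% against 37.5% at 10 kb and 26.2% against 28.4% at 25 kb.

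By chromosome, members without a near miss made up 1.96% to 5.94% of the matched loops. The highest shares were on chromosomes 3 (23 of 387), 13 (19 of 342, 5.56%) and 9 (20 of 377, 5.31%). The lowest were on chromosomes 7 (8 of 408), 19 (4 of 193, 2.07%) and 12 (6 of 262, 2.29%). No chromosome was without a member.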

How the data were processed

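The authors deposited 1 list of loops per library, with 6 unlabelled columns of anchor positions (chromosome, start and end of each anchor), in bases on mm10 and made with Juicer 1.5.6, per the submitters' processing notes. Libraries were prepared with the Arima Hi-C kit, per the labels' protocols. Which program called the loops, and with which thresholds, was not given in the sources used here. The deposited positions are the only values: there are no counts, scores or errors, so the depth and the precision of each library are unknown, and starts, which count from 0, were written from 1.

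Groups came from the labels: 2 wild-type vehicle libraries, 1 progesterone and 1 knockout. Each anchor of the loop looked for was widened by 10 kb on each side and the other list was used as deposited. Distance to the nearest loop is the larger of both midpoint shifts, minimised over the list. Missing shares carry Clopper-Pearson 95% intervals. The matching step was tested on a list simulated from the loops of vehicle replicate 2 with 5 kb anchors. Of 1976 loops removed, 96.9% were recovered as missing with no near miss, and the rest lay close to another loop. Kept loops stayed in the same bins and coarser anchors were not simulated, so this gives no error rate for the deposited lists. Genes were 21631 protein-coding genes of a RefSeq table for GRCm38.p6, placed at an anchor by either end, since the table has no strand. The 12 gene lists hold 241 symbols, of which all but 2, Cyr61 and Tf, matched; Cyr61 is also listed as Ccn1. Promoters came from RefSeq and were searched for 3 motifs. The members and lists were chosen with earlier results of these data known. Named genes were those of the lists at a member without a near miss, up to 10 others with the most such members (ties by anchor size, then symbol), 5 places, the 10 members farthest from a knockout loop, and Esr1, Pgr, Igf1, Greb1 and Ihh. No test was made, since the lists hold no counts or scores and the knockout has 1 library. Alternatives changed the added distance, the matching, the near-miss limit, anchor size, starting list and each wild-type library. Python 3.11.15, numpy 2.4.6, pandas 2.3.3 and scipy 1.17.1 were used.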

Additional observations from a re-analysis of the deposited data

How the results depend on the processing

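Depth and signal strength were not available, so nothing here separates a weak loop from an absent one, and the knockout is 1 library. No paired analysis was possible, because the genotypes share no replicate number. Under other matching, the 459 members became 659 with 0 kb added and 590 with 5 kb, but 271 with 25 kb added, 276 when midpoints within 25 kb counted as a match, and 303 when 10 kb was added to the anchors of both lists, an alternative chosen after seeing the data. The number without a near miss moved less, from 256 to 240, 271, 276 and 275, except that with 0 kb added it was 144. With 5 kb anchors only, 214 members and 77 without a near miss were left, and with 10 kb anchors only, 159 and 95. Leaving out each wild-type library in turn gave 573 to 1105 members and 345 to 748 without a near miss. With the same starting list, requiring fewer lists can only add members, so shares of the matched loops are given too. Without vehicle replicate 3 there were 1105 (11.6%) and 748 (7.84%), and without progesterone 808 (10.0%) and 488 (6.05%). The main shares were 6.70% and 3.74%. A near-miss limit of 10 kb left 0 near misses and 459 others, with a median length of 245 kb instead of 350 kb, and one of 50 kb left 163 others, with 380 kb. Starting from vehicle replicate 3 or progesterone gave 405 and 410 members. Both anchors were in other knockout loops in 95 members with 0 kb added and 188 with 25 kb, against 155, and a gene touched an anchor in 181 within 10 kb and 208 by gene body, against 109. In all 5 matching settings, the share missing from the knockout without a near miss, 3.47% to 3.84%, lay between vehicle replicate 2 (2.37% to 2.75%) and progesterone (9.65% to 10.3%). Over all anchor sizes, the knockout's missing loops had the highest median length in each setting, 320 to 385 kb against 150 to 250 kb. With 25 kb added to their anchors, 226 of the 256 stayed unmatched, with 50 kb 160 and with 100 kb 115.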
